A study of Drosophila melanogaster with 4 samples.

Results

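The 7 genes described here make, load and clear the fast transmitters acetylcholine, glutamate and GABA. They were taken by symbol from 14162 listed genes: Cha, VAChT and Ace for acetylcholine, VGlut for glutamate, and Gad1, VGAT and CG1732 for GABA. All 7 were found in each library. Cha is named ChAT in RefSeq, and with VAChT and Ace it lies on chromosome arm 3R, while VGlut lies on 2L, Gad1 on 3L, VGAT on 2R and CG1732 on chromosome 4. The study measured mRNA of dvpdf neurons from brains of Drosophila melanogaster in 4 libraries. Of these, 2 are labelled NonA RNAi, in which RNA interference was directed against nonA, a gene of a nuclear RNA-binding protein, in dvpdf cells, and 2 are labelled control. The treatment text of the labels is the same for both groups, so the groups rest on the sample titles and sample types, and no genotype, driver, age or time of day is given. From Drosophila work in general, a driver line called DvPdf uses the promoter of the Pdf gene of Drosophila virilis and is active in the ventral lateral clock neurons and in some dorsal lateral ones. The labels do not state separate dissections for the 2 libraries of a group, so the p-values may reflect technical spread alone.

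A neuron that releases acetylcholine makes it from choline with choline acetyltransferase, loads it into vesicles with the vesicular acetylcholine transporter and has it broken down outside the cell by acetylcholinesterase. Glutamate is present in every cell, so the vesicular glutamate transporter is what marks a neuron that releases it. GABA is made from glutamate by glutamic acid decarboxylase, loaded by the vesicular GABA transporter and cleared by a transporter in the plasma membrane, which in the fly brain is made mainly by astrocyte-like glia. Lateral clock neurons are best known for the peptide PDF, and choline acetyltransferase has been reported in a few dorsal lateral neurons and in a ventral lateral neuron without PDF.

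The number of reads on genes was 9673275 and 8558125 in NonA RNAi replicates 1 and 2 and 8419248 and 9832771 in control replicates 1 and 2. Levels are given as CPM, the reads of a gene per 1000000 gene reads of its library, and log2 folds, NonA RNAi over control, come from edgeR's model, which scales libraries with TMM. The labels were checked against markers. The clock genes tim and cry lay between 426 and 2594 CPM in all libraries, and the synaptic vesicle gene n-syb between 606 and 684 CPM. Some other neuronal and clock neuron genes varied more. Among them, Snap25 ran from 228 to 1531 CPM and the peptide gene itp from 932 to 17016 CPM. Pdf, the gene of the peptide by which lateral clock neurons are known, was at 18436 and 86575 CPM in NonA RNAi replicates 1 and 2, against 4979 and 2159 CPM in control replicates 1 and 2. Its groups did not overlap, as for 32.1% of all genes tested, with a log2 fold of 3.94 ± 1.03 (SE) that did not pass edgeR's test (unadjusted p = 0.00857, adjusted p = 0.798) and passed in DESeq2 (adjusted p = 0.000457). The part of this difference in the levels of the transmitter genes was not tested. A DESeq2 pass may be weaker evidence here than its threshold implies. In a simulation of this comparison, 57 of 217 DESeq2 calls fell on genes without a change, against 6 of 140 in edgeR. The simulated reads were drawn with the spread that edgeR itself estimated, so the simulation may favour edgeR and does not rank the tools. Its calls were counted at an adjusted p under 0.05, not at smaller values such as that of Pdf. Of the other marker lists, glial genes summed to 339 and 949 CPM in NonA RNAi replicates 1 and 2, against 988 and 3915 CPM in control replicates 1 and 2. Fat body and hemocyte genes summed to 183 and 275 CPM in NonA RNAi replicates 1 and 2, against 3847 and 263 CPM in control replicates 1 and 2. Photoreceptor genes summed to 157 and 294 CPM in NonA RNAi replicates 1 and 2, against 394 and 554 CPM in control replicates 1 and 2. nonA was at 168 and 283 CPM in NonA RNAi replicates 1 and 2, against 256 and 241 CPM in control replicates 1 and 2, so in NonA RNAi replicate 2 the targeted gene was not lower than in the controls. The libraries are therefore named by their labels, and each direction rests on the label alone. In bulk RNA, fewer cells of a type and less RNA per cell cannot be told apart. None of the 7 genes differed between the libraries labelled NonA RNAi and the controls beyond the spread between replicates, and for all of them the 2 libraries labelled NonA RNAi lay further apart than the group means.

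Among the acetylcholine genes, Cha encodes choline acetyltransferase. Its level was 89.6 and 199.7 CPM in NonA RNAi replicates 1 and 2, and 174 and 74.1 CPM in control replicates 1 and 2. Each group held a high and a low library, and control replicate 2 was the lowest of the 4. The means were 145 ± 77.8 CPM for the label NonA RNAi and 124 ± 71.0 CPM in the controls (SD, n = 2 each), and the fold in log2 was 0.26 ± 0.64 (SE), with a 95% interval from -1.31 to 1.83.

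VAChT, the gene of the vesicular acetylcholine transporter, was at 76.9 and 378 CPM in NonA RNAi replicates 1 and 2, against 286 and 238 CPM in control replicates 1 and 2. The controls lay close together, between the lowest and the highest value, which were both from libraries labelled NonA RNAi. The means were 228 ± 213 CPM for the label NonA RNAi and 262 ± 33.4 CPM in the controls (SD, n = 2 each), with a log2 fold of -0.15 ± 0.79 (SE). Ace, the gene of acetylcholinesterase, was at 109.7 and 254 CPM in NonA RNAi replicates 1 and 2 and at 275 and 194 CPM in control replicates 1 and 2. NonA RNAi replicate 1 was the low library, and the other 3 lay between 194 and 275 CPM. The log2 fold of Ace was -0.33 ± 0.58 (SE).

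VGlut, the only glutamate gene among the 7, was at 56.3 and 458 CPM in NonA RNAi replicates 1 and 2, and at 266 and 141 CPM in control replicates 1 and 2. NonA RNAi replicate 2 had 8.13 times the level of NonA RNAi replicate 1, and both controls lay between them. The means were 257 ± 284 CPM for the label NonA RNAi and 204 ± 88.5 CPM in the controls (SD, n = 2 each). In log2 the fold came to 0.40 ± 0.97 (SE), and its 95% interval ran from -1.96 to 2.77.

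Of the GABA genes, Gad1 encodes glutamic acid decarboxylase. Its level was 281 and 839 CPM in NonA RNAi replicates 1 and 2, against 909.8 and 436 CPM in control replicates 1 and 2. As for Cha, each group held a high and a low library. The means were 560 ± 395 CPM for the label NonA RNAi and 673 ± 335 CPM in the controls (SD, n = 2 each), with a log2 fold of -0.22 ± 0.72 (SE). VGAT, the gene of the vesicular GABA transporter, had the lowest mean number of reads, with 39.5 and 82.5 CPM in NonA RNAi replicates 1 and 2 and 89.8 and 64.8 CPM in control replicates 1 and 2. Its groups overlapped, and its log2 fold was -0.30 ± 0.54 (SE).

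CG1732, named Gat in RefSeq, encodes the GABA transporter of the plasma membrane. Its level was 15.7 CPM in NonA RNAi replicate 1 and 414 CPM in NonA RNAi replicate 2, against 265 and 198 CPM in control replicates 1 and 2. The first of these values stood far below the other 3. It rested on 152 reads, and the exact (Clopper-Pearson) 95% binomial interval was 13.3 to 18.4 CPM, the widest of the 28 member values relative to its level at 16.2% to each side. The means were 215 ± 282 CPM for the label NonA RNAi and 231 ± 47.1 CPM in the controls (SD, n = 2 each). In log2 the fold came to -0.03 ± 1.26 (SE), with a 95% interval from -3.11 to 3.04.

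**Figure D1:**
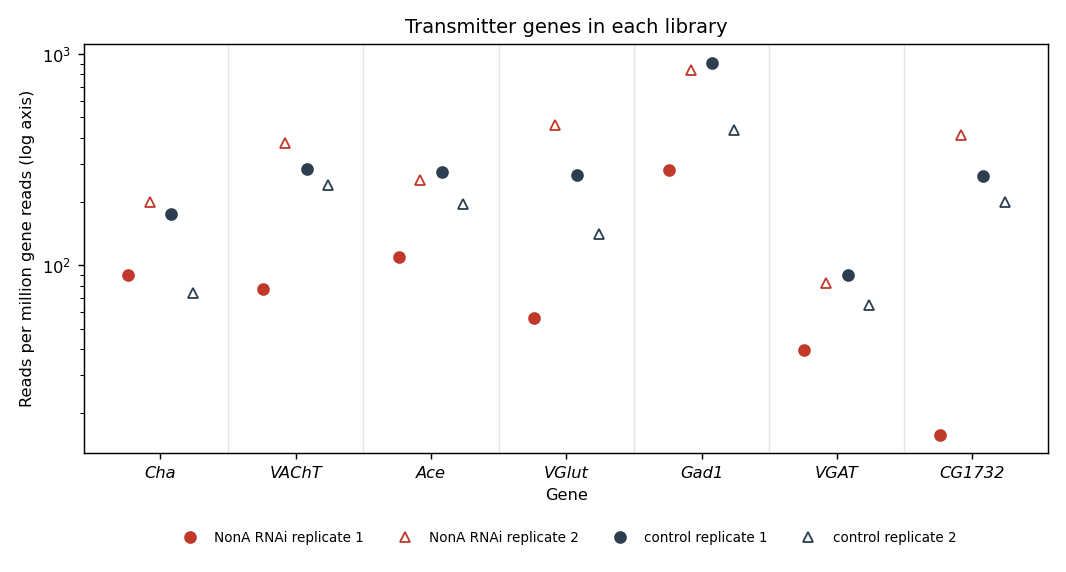
CPM (log axis) of the 7 transmitter genes in each of the 4 libraries; each symbol is 1 library, red for those labelled NonA RNAi and dark blue for controls. NonA RNAi replicate 1 is the lowest library for 6 of the 7 genes, and the groups overlap for all 7.

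In edgeR's two-sided quasi-likelihood test with Benjamini-Hochberg adjustment over 7248 genes, 0 of the 7 passed a threshold of 0.05, with adjusted p between 0.997 and 0.998. Over all genes tested, 0% passed. At an unadjusted p under 0.05 there were 0 of the 7 and 5.09% of all genes, and DESeq2 called 0 of the 7 and 1.82% of all genes. The median log2 fold was -0.15 over the 7 and 0.04 over all genes tested. The groups were apart for 0 of the 7, while over all genes they did not overlap for 32.1%, with the libraries labelled NonA RNAi higher for 15.4% and lower for 16.7%. The intervals were wide, so these values do not show that the genes were equal: the one for VGAT, the narrowest, ran from -1.62 to 1.02. The direction turned on single libraries. Without NonA RNAi replicate 1 all 7 log2 folds were above 0, from 0.17 for VGAT to 1.25 for VGlut, and without NonA RNAi replicate 2 all 7 were below 0, from -3.96 for CG1732 to -0.55 for Cha.

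The larger differences lay between libraries of the same label. NonA RNAi replicate 2 had 2.09 to 8.13 times the level of NonA RNAi replicate 1 for Cha, VAChT, Ace, VGlut, Gad1 and VGAT, and 26.4 times for CG1732. A difference of at least 2-fold between the libraries labelled NonA RNAi held for 7 of the 7 genes, against 34.6% of all genes tested, and with NonA RNAi replicate 2 as the higher library for 13.6% of all genes. Between the controls, replicate 1 was 1.20 to 2.35 times as high as replicate 2, and the difference reached 2-fold for 2 of the 7, Cha and Gad1, against 27.0% of all genes. The median absolute difference on the scale of log2(CPM + 1) was 1.58 over the 7 and 0.64 over all genes between the libraries labelled NonA RNAi, and 0.51 and 0.53 between the controls. The difference between the libraries labelled NonA RNAi was larger than that of 99.3% of all genes for CG1732, of 97.0% for VGlut and of 93.1% for VAChT, and than that of 69.8% for VGAT.

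**Figure D2:**
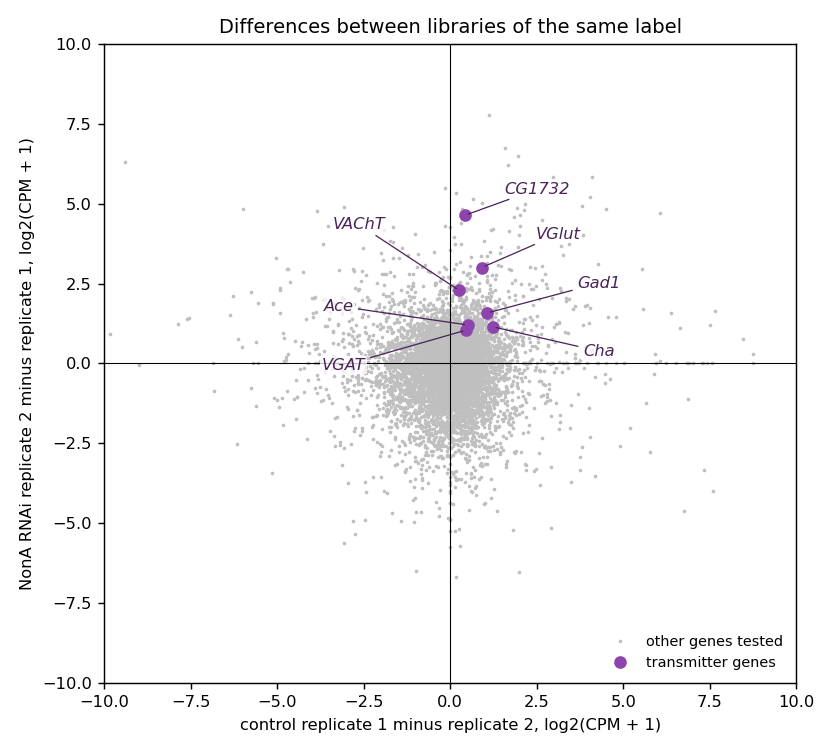
Difference between the 2 controls (x axis) and between the 2 libraries labelled NonA RNAi (y axis), both as log2(CPM + 1), for each gene tested, with the 7 transmitter genes in purple. All 7 lie above 0 on both axes, and CG1732 and VGlut lie furthest up.

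For all 7 genes NonA RNAi replicate 2 and control replicate 1 were both above NonA RNAi replicate 1 and control replicate 2. This order was noticed after the values were seen, and it held for 15.7% of all genes tested. Genes that most neurons use showed it too: of 9 measured pan-neuronal genes 7 had this order (elav, Syt1, brp, Snap25, Syx1A, para and unc-13), and the summed level of all 9 was 5059.8 and 8314 CPM in NonA RNAi replicates 1 and 2 and 8117 and 6278 CPM in control replicates 1 and 2. Snap25, a SNARE protein gene of vesicle fusion, was at 228 and 1531 CPM in NonA RNAi replicates 1 and 2, against 1271 and 608 CPM in control replicates 1 and 2, while n-syb and futsch did not share the order. Of 6 clock neuron genes 3 had it. They were the peptide genes sNPF, npf and itp, and itp was at 932 and 15114 CPM in NonA RNAi replicates 1 and 2 and at 17016 and 1201 CPM in control replicates 1 and 2. Pdf, cry and tim did not. The part of the neurons collected in these differences was not tested.

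Levels of different genes were compared per kilobase of exon, with exon lengths from the Ensembl annotation of BDGP6, a later build than the dm3 named for the reads. For VGlut the deposited length is 19004 bases, while its Ensembl gene span is 10368 bases. Its reads may therefore come from another gene model than its exon length, and its values per kilobase are uncertain. Gad1 was the highest of the 7 in each of the 4 libraries, at 76.2 and 228 CPM per kilobase of exon in NonA RNAi replicates 1 and 2 and 247 and 118 in control replicates 1 and 2. These values were above those of 84.1% to 95.6% of the genes tested that have an exon length. The means per kilobase of exon in the libraries labelled NonA RNAi were 152 ± 107 for Gad1, 74.3 ± 97.4 for CG1732, 45.02 ± 49.7 for VGlut, 36.1 ± 19.4 for Cha, 32.1 ± 30.01 for VAChT, 22.6 ± 11.3 for VGAT and 21.4 ± 12.01 for Ace (CPM per kilobase, SD, n = 2). No neighbours in that order differed beyond their spread. In the controls the order was Gad1 at 183 ± 90.9, CG1732 at 79.9 ± 16.3, VAChT at 36.9 ± 4.71, VGlut at 35.6 ± 15.5, Cha at 31.0 ± 17.7, VGAT at 28.6 ± 6.55 and Ace at 27.7 ± 6.83. Here Gad1 lay above CG1732, and CG1732 above the rest, in both libraries without overlap, and neighbours among the last 5 overlapped. Per kilobase of coding sequence, Gad1 was again the highest in each library, but CG1732 was not above VAChT in the controls, where CG1732 was at 139 and 104 and VAChT at 165 and 137 CPM per kilobase, so the second place depends on the length used. For scale, Syt1, the gene of a calcium sensor of synaptic vesicles, was at 144 to 190 CPM per kilobase of exon in 3 libraries and at 119 in control replicate 2.

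In a single neuron the vesicular transporters show what it can release, but in bulk RNA their shares describe all the cells collected together. Among the 3 for fast transmitters none held a majority in any library per kilobase of exon. VGlut had 27.9% and 48.9% of their sum in NonA RNAi replicates 1 and 2, against 38.8% and 29.99% in control replicates 1 and 2. VAChT had 30.7% and 32.5% in NonA RNAi replicates 1 and 2, against 33.5% and 40.8% in the controls. VGAT had 41.4% and 18.6% in NonA RNAi replicates 1 and 2, against 27.7% and 29.2% in the controls. The leading one of these 3 was thus VGAT in NonA RNAi replicate 1, VGlut in NonA RNAi replicate 2 and control replicate 1, and VAChT in control replicate 2. All shares and ranks that involve VGlut carry the uncertainty of its length given above. Vmat, the vesicular transporter of amines, is not in these shares. It was at 42.3 and 69.2 CPM per kilobase of exon in NonA RNAi replicates 1 and 2, against 11.3 and 18.7 in control replicates 1 and 2, so in NonA RNAi replicate 1 it was above each of the 3. Per kilobase of coding sequence Vmat was at 171 and 281 CPM in NonA RNAi replicates 1 and 2, above each of the 3 in both. In control replicates 1 and 2 it was at 45.9 and 76.0 CPM by that length, below VAChT in both. With coding lengths VAChT led among the 3 in NonA RNAi replicate 1 and in both controls, at 45.2%, 45.8% and 54.7%, and VGlut in NonA RNAi replicate 2 at 47.4%. The 54.7% of VAChT in control replicate 2 is a majority, so its absence per kilobase of exon depends on the length used.

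**Figure D3:**
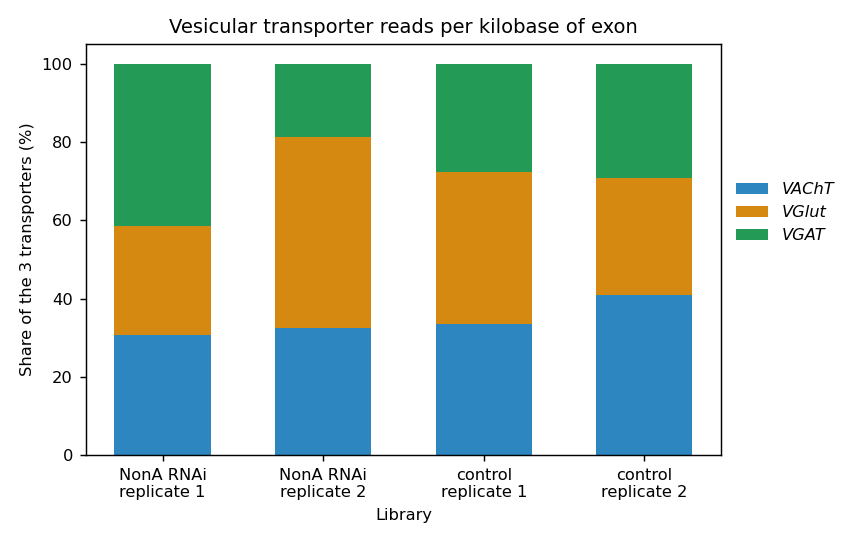
Share (%) of VAChT, VGlut and VGAT in their summed reads per kilobase of exon, one bar per library. VGlut takes 48.9% in NonA RNAi replicate 2 and 27.9% in NonA RNAi replicate 1, and VGAT takes 18.6% and 41.4%.

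Ratios of reads between members within a library do not depend on the scaling between libraries, and 6 were compared. Cha and VAChT belong to a single cholinergic locus on chromosome arm 3R in which VAChT lies inside the Cha gene and both share a first exon. In the annotation 606 exon bases are common to both, which is 15.1% of the exon length of Cha and 8.54% of that of VAChT, so reads there cannot be assigned to either. Of the other members, Ace, Gad1 and VGAT share no exon base with another annotated gene, VGlut shares 0.682% with CG18641 on the opposite strand, and CG1732 shares 9.98% with an INE-1 transposon entry. The ratio of VAChT to Cha reads was 0.858 and 1.89 in NonA RNAi replicates 1 and 2, against 1.64 and 3.22 in control replicates 1 and 2. It varied 3.75-fold over the 4 libraries, and the groups overlapped, with a difference of -0.85 in log2 (exact two-sided permutation test, p = 0.667, adjusted over the 6 ratios to 1). The ratio of Ace to Cha, the breakdown over the synthesis enzyme, was 1.22 and 1.27 in NonA RNAi replicates 1 and 2, against 1.58 and 2.61 in control replicates 1 and 2. Both libraries labelled NonA RNAi lay below both controls here, with a difference of -0.70 in log2 and means of 0.32 ± 0.04 for the label NonA RNAi and 1.02 ± 0.51 in the controls (SD, n = 2 each). The exact permutation test gave p = 0.333, the smallest that 2 against 2 libraries allow, and 1 after adjustment over the 6 ratios.

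The other 4 ratios overlapped between the groups. Gad1 over VGAT, the synthesis over the loading step for GABA, was the steadiest of the 6, at 7.10 and 10.2 in NonA RNAi replicates 1 and 2 and 10.1 and 6.73 in control replicates 1 and 2. VGlut over VAChT was 0.733 and 1.21 in NonA RNAi replicates 1 and 2, against 0.931 and 0.591 in control replicates 1 and 2. VGAT over VAChT was 0.513 and 0.218 in NonA RNAi replicates 1 and 2, against 0.314 and 0.272 in control replicates 1 and 2. CG1732 over Gad1, the clearance over the synthesis gene, was 0.056 in NonA RNAi replicate 1 and 0.494 in NonA RNAi replicate 2, against 0.291 and 0.454 in control replicates 1 and 2, so CG1732 in NonA RNAi replicate 1 was low also relative to Gad1 of the same library.

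Because CG1732 is best known from glia, glial genes are set beside it. CG11910, which RefSeq names alrm and which marks astrocyte-like glia, was at 3.51 CPM in NonA RNAi replicate 1 and 182 CPM in NonA RNAi replicate 2, against 177 and 158 CPM in control replicates 1 and 2. Eaat1, the glutamate transporter gene of the same glia, was at 75.3 and 354 CPM in NonA RNAi replicates 1 and 2, against 247 and 205 CPM in control replicates 1 and 2. Like CG1732, both were lowest in NonA RNAi replicate 1 and highest in NonA RNAi replicate 2. Eaat1 was not on the glial list, and CG11910 was not typical of it. Of the 11 listed genes only 1, CG11910, had NonA RNAi replicate 2 and control replicate 1 above the other libraries, against 15.7% of all genes tested. The pan-glial transcription factor gene repo was not lowest there, at 36.0 and 37.4 CPM in NonA RNAi replicates 1 and 2 and 15.6 and 124 CPM in control replicates 1 and 2.

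Over the whole glial list, 11 of 11 genes were read and 0 were at 0 in any library. The summed level was 339 and 949 CPM in NonA RNAi replicates 1 and 2 and 988 and 3915 CPM in control replicates 1 and 2. The high sum of control replicate 2 held e, the ebony gene, at 1003 CPM, nrv2 at 1208 CPM and inx2 at 716 CPM, but the CG1732 level of that library was the third of the 4. Of the 11 genes 9 were tested, and all 9 had a log2 fold below 0, with a median of -1.64. Over all 7248 genes tested, 3422 had a log2 fold below 0. Without control replicate 2, 3 of the 9 were below 0 and the median was 0.73. The groups were apart for 2 of these 9, nrv2 and CG2893, and lower in both. Over all genes tested they were apart for 32.1% in either direction and lower for 16.7%. None of the 9 passed in edgeR, against 0% of all genes tested. There 1 of the 9, CG2893, had an unadjusted p under 0.05, against 5.09% of all genes. In DESeq2 1 of the 9 passed, against 1.82% of all genes. For 5 of the 11 glial genes NonA RNAi replicate 1 was the lowest library, as it was for CG1732, against 28.5% of all genes tested. The part of glial RNA in the CG1732 level was not tested.

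**Figure D4:**
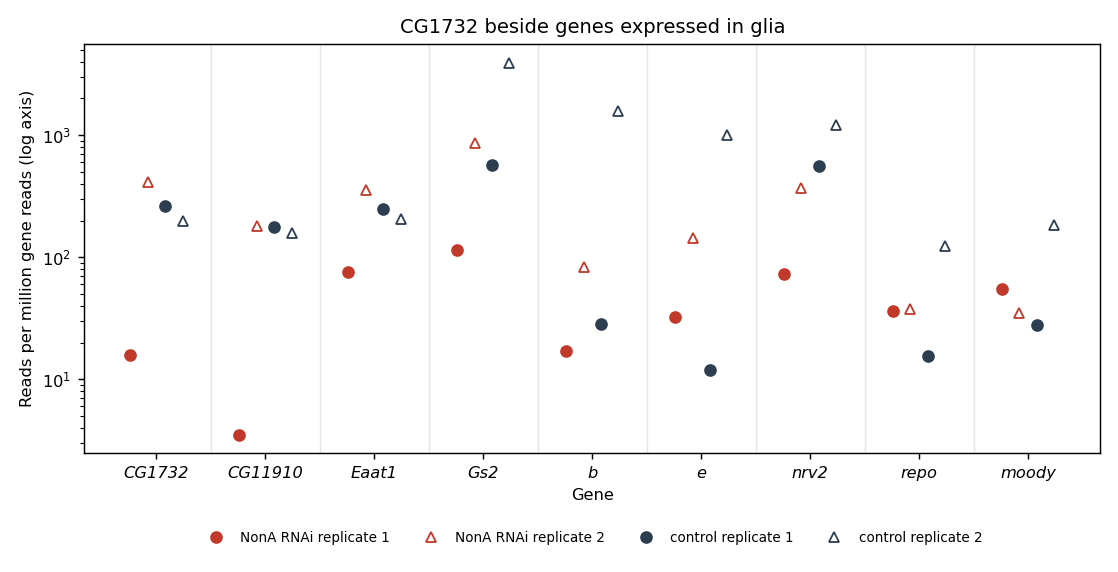
CPM (log axis) of CG1732 and of 8 chosen genes expressed in glia, 1 symbol per library, red for those labelled NonA RNAi and dark blue for controls. CG11910, e, nrv2, repo and moody are from the glial list, whose other genes are not drawn, and Eaat1, Gs2 and b are from the pathway lists. CG1732 and CG11910 show the same single low library, NonA RNAi replicate 1 at 15.7 and 3.51 CPM, whereas b, e and Gs2 are highest in control replicate 2.

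A further 13 genes of the 3 pathways were examined as a list, and 0 of 13 passed edgeR's test, against 0% of all genes tested. At an unadjusted p under 0.05 there were 0 of 13, against 5.09% of all genes, and DESeq2 called 0, against 1.82%. The log2 folds of the 13 were above 0 for 5 and below 0 for 8, with a median of -0.16. Over all genes tested, 3826 were above 0 and 3422 below. CG7708, named ChT in RefSeq and encoding the choline transporter that feeds acetylcholine synthesis, was at 80.7 and 224 CPM in NonA RNAi replicates 1 and 2, against 172 and 125 CPM in control replicates 1 and 2. As for the 7 members, NonA RNAi replicate 2 and control replicate 1 were above NonA RNAi replicate 1 and control replicate 2. Its log2 fold was 0.08 ± 0.62 (SE), and most of its exon bases, 69.5%, are shared with another gene in the annotation, so its reads are uncertain.

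In glutamate handling, Eaat2, a transporter of acidic amino acids and taurine, was the 1 gene of the 13 whose groups were apart, against 32.1% of all genes tested. It was at 629 and 420.0 CPM in NonA RNAi replicates 1 and 2, against 351 and 264 CPM in control replicates 1 and 2. In log2 the fold came to 0.78 ± 0.47 (SE), at an adjusted p of 0.970 in edgeR, so the difference did not pass. Gdh, the glutamate dehydrogenase gene, was the steadiest, at 199 and 221 CPM in NonA RNAi replicates 1 and 2 and 209 and 195 CPM in control replicates 1 and 2. Gs2, the mainly glial glutamine synthetase, was at 114 and 859 CPM in NonA RNAi replicates 1 and 2, against 573 and 3932 CPM in control replicates 1 and 2. Its groups overlapped, with a log2 fold of -2.16 ± 1.25 (SE), which was -0.19 without control replicate 2 and -4.39 without NonA RNAi replicate 2. Gs1, the mitochondrial form, was at -0.16 in log2 fold, the aminotransferase genes Got1 and Got2 at -1.21 and -0.77, the glutaminase gene CG42708 at 0.17, and gb, a glial amino acid transporter gene, at 0.25.

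The 3 further GABA genes had log2 folds below 0 and their highest level in control replicate 2. b, the black gene, whose product is a decarboxylase related to Gad1 that makes beta-alanine, was at 17.0 and 82.7 CPM in NonA RNAi replicates 1 and 2, against 28.4 and 1589.7 CPM in control replicates 1 and 2. Its log2 fold of -3.98 ± 1.77 (SE) became 0.85 without control replicate 2. CG7433, which encodes GABA transaminase, had 284 and 566 CPM in NonA RNAi replicates 1 and 2, against 558 and 869.6 CPM in control replicates 1 and 2, and Ssadh, the gene of the next enzyme of GABA breakdown, had 95.4 and 212 CPM in NonA RNAi replicates 1 and 2, against 124 and 474 CPM in control replicates 1 and 2. The genes of GABA breakdown were thus highest in control replicate 2, in which Gad1 was the third of the 4 libraries, and the same library had the highest summed glial level, as given above.

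**Figure D5:**
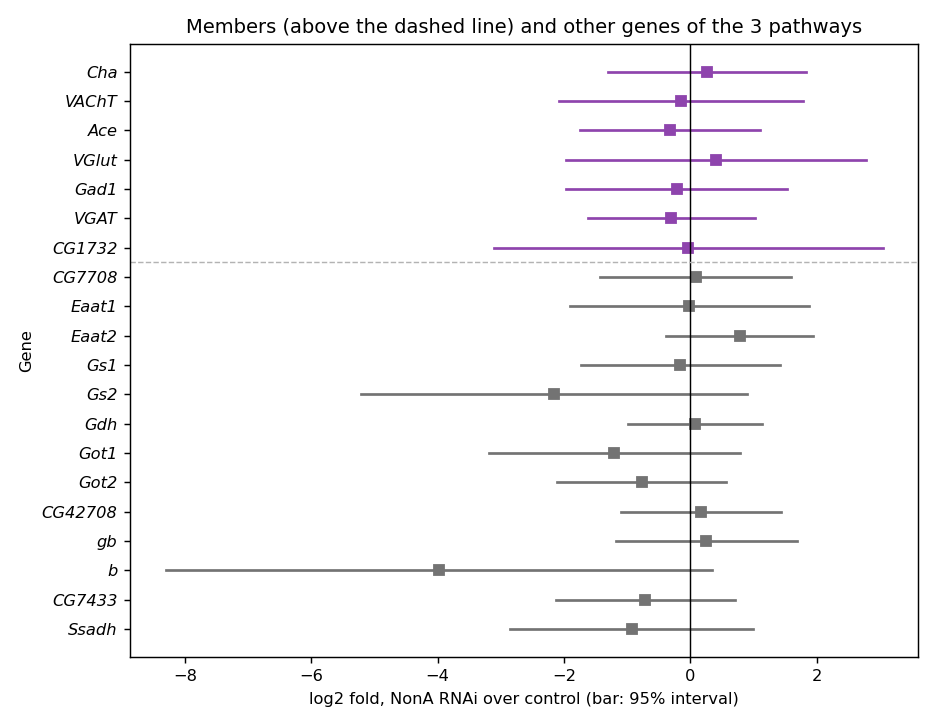
log2 fold of the libraries labelled NonA RNAi over the controls, with its 95% interval from edgeR, for the 7 transmitter genes (purple) and 13 further genes of the 3 pathways (grey). All 20 intervals include 0, and the widest are those of b, CG1732 and Gs2.

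The genes whose level over the 4 libraries ran closest to each member were found by the root mean square difference of log2(CPM + 1), centred on each gene's mean. With 4 libraries this is a description only, and it was computed over the 7248 genes tested. For VAChT the closest was Eaat1, at 0.08, followed by Kmn1 and CG12229. For CG1732 it was Tk, the tachykinin peptide gene, at 0.20, then nimC1 and ort, and 1 gene in all lay within 0.25. For VGlut 7 genes lay within 0.25, led by CG34367, CG17032 and CG31221. Around Ace and VGAT the profile was common, with 302 and 420 genes within 0.25, and Cbp53E, a calcium-binding protein gene, was among the 3 closest to both. Cha ran closest to Vps16B, CG14220 and CG31800, and Gad1 to CG30099, CG40263 and CG32544.

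For the amines, which are slower transmitters, 10 genes of synthesis and transport were read and 9 tested, and edgeR called 0 of them (unadjusted p under 0.05 for 2, against 5.09% of all genes tested, and 2 calls in DESeq2, against 1.82%). The groups were apart for 4 of the 9, higher for Vmat, Trh and Tbh with the label NonA RNAi and lower for SerT, against 32.1% of all genes tested. Vmat was at 344 and 563 CPM in NonA RNAi replicates 1 and 2, against 92.2 and 152 CPM in control replicates 1 and 2, so that its groups were apart where those of VAChT, VGlut and VGAT overlapped. Its log2 fold was 1.92 ± 0.56 (SE), at an adjusted p of 0.881 in edgeR and 0.0390 in DESeq2. The difference between Vmat and the other vesicular transporters was not tested. Trh, the gene of the tryptophan hydroxylase of serotonin synthesis, was at 285 and 126 CPM in NonA RNAi replicates 1 and 2, against 11.5 and 0.814 CPM in control replicates 1 and 2, with a log2 fold of 5.07 ± 1.24 (SE) and an adjusted p of 0.754 in edgeR. Trh passed in DESeq2 (adjusted p = 0.000519) and in edgeR without a filter on low values (adjusted p = 0.00396). The log2 fold of Trh ran from 4.13 to 7.94 when single libraries were left out. As given above, part of the DESeq2 calls in the simulation fell on genes without a change.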

How the data were processed

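The counts were deposited by the authors as raw reads per gene symbol, per the file headers, with the length and the RPKM. TopHat2 2.1.1, Cufflinks and build dm3 are named in the submitters' processing notes; which program counted reads, with which annotation and whether by strand, is not given in the sources used here. The length deposited by the authors is a span of bases per gene, per the file headers, and lies within 10 bases of the Ensembl gene span for 71.0% of genes, so RPKM understates genes with long introns such as Cha and Ace. Per the labels' protocols mRNA was amplified, which can favour some parts of a transcript and makes reads dependent, so counting intervals cover counting error only. Entries without a gene name were dropped. Reads without a feature were 27.8% to 32.5%, reads with several places 45.2% to 55.6% and ambiguous reads 0.22% to 0.32% of all entries. NonA RNAi replicate 1 stood apart, with 45.2% of reads in several places, against 53.7% to 55.6% in the other libraries. Reads on genes were 22.0% of its entries, against 15.9% to 16.5%. The part of this difference in the member levels was not tested.

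Genes with a mean RPKM of at least 1, or 1 CPM without a length, were compared with edgeR 4.0.16 (R 4.3.3, TMM scaling, factors 0.954 to 1.04). The SE of a log2 fold was taken as its size over the root of the F statistic. Printed CPM use gene reads only, without TMM. Alternatives used DESeq2 1.42.0, limma 3.58.1 and other scalings and filters, and exact permutation tests used scipy 1.17.1. In the simulation of this comparison with 7248 genes, the share of changed genes that edgeR found was 8.96% at 4-fold, 94.0% at 16-fold and 98.5% at 64-fold. The changed genes were drawn only from those above a minimum expected number of reads, so these shares do not cover genes with few reads. Members, lists and tests were chosen with earlier results of these data known. The genes named are the members, the list genes and the 3 closest genes of each member. Exon lengths were found for 98.2% of the genes tested.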

Additional observations from a re-analysis of the deposited data

How the results depend on the processing

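The number of members that passed was 0 under each alternative. Over all genes 0 passed in edgeR, 95 without a filter on low values and 132 in DESeq2, and between 0 and 21 with single libraries left out, the 21 without control replicate 2. Where a library was left out, its group kept 1 library and took its spread from the other group. When single libraries were dropped, log2 folds ran from -0.55 to 0.99 for Cha, -1.85 to 0.61 for VAChT, -1.17 to 0.19 for Ace, -1.93 to 1.25 for VGlut, -1.34 to 0.40 for Gad1, -1.05 to 0.17 for VGAT and -3.96 to 0.92 for CG1732. They ranged from -0.95 to 0.67 for CG7708, -1.66 to 0.73 for Eaat1, -0.98 to 0.49 for Gs1, -0.10 to 0.21 for Gdh, -1.97 to 0.49 for Got1, -0.48 to 0.57 for CG42708, -0.24 to 0.98 for gb, -5.67 to 0.85 for b, -1.74 to 0.34 for Ssadh, 0.53 to 0.98 for Eaat2, -4.39 to -0.19 for Gs2, -1.28 to -0.014 for Got2 and -1.42 to -0.26 for CG7433. The differences in log2 ratio ranged from -1.42 to -0.28 for VAChT over Cha, -1.07 to -0.34 for Ace over Cha, -0.019 to 0.71 for VGlut over VAChT, -0.42 to 0.81 for VGAT over VAChT, -0.25 to 0.34 for Gad1 over VGAT and -2.70 to 0.44 for CG1732 over Gad1.

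The replicate number as a block gave 0 calls over all genes and turned VGlut to -0.25 and CG7708 to -0.11, and gave CG1732 -1.47. The ratio differences (-0.85 for VAChT over Cha) cannot change under this block, since each number occurs once in each group. The deviations of same-numbered libraries were not correlated across genes (r = -0.01), and the labels do not say that a number is shared, so it was not taken as a pairing. limma on log2(RPKM + 1) turned VGlut to -0.029 and CG7708 to -0.027. Eaat1 turned to 0.0036 without a filter and 0.0016 with the filter on CPM. The causes were not tested. Cha, Ace and VGlut fell below the filter at a mean RPKM of at least 5, so they had no value there.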
